A study of Drosophila melanogaster with 4 samples.

Results

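The achaete-scute complex of Drosophila melanogaster is a cluster of genes near the tip of the X chromosome that encode proneural transcription factors. Called binding positions of the BEN-domain protein Insensitive (Insv) were taken as belonging to it when they lay on X in build dm3 with a first base from 250001 to 360001, a stretch of 110001 bp. This interval held 5 of the 7754 positions in the study, 4 of 5364 in younger embryos and 1 of 2390 in older ones. Both lists came from chromatin immunoprecipitation and sequencing (ChIP-seq) of whole embryos of the w[1118] stock, a white-eyed laboratory line labelled wild type, aged and collected at 25 degrees. The early collection covered 2.5 to 6 h of development and the late one 6.5 to 12 h. Each age had 1 Insv library and 1 library made with IgG, an antibody control; the IgG libraries were not analysed here. With 1 library per age there is no replicate error, and every value below is a description of these lists without a test. Whole embryos were used, so the cells in which a position was bound cannot be told apart.

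The genes achaete (ac), scute (sc), lethal of scute (l(1)sc) and asense (ase) encode basic helix-loop-helix proteins that bind E-box DNA as dimers with Daughterless and give cells of the ectoderm the capacity to become neural. Expression of ac and sc marks the clusters from which external sense organs arise, and sc also counts among the X-linked elements that set sexual fate in the early embryo. l(1)sc acts broadly in the early ventral neuroectoderm, and ase is expressed in neural precursors after they have been chosen. Notch signalling restricts proneural expression to single cells through the repressors of the Enhancer of split complex, and Extramacrochaetae blocks proneural proteins by forming dimers that do not bind DNA. Insv is a nuclear DNA-binding repressor protein that acts in the nervous system and has been linked to Notch target genes.

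In the RefSeq gene table of Release 6, a later build than that of the positions, the stretch from yellow (y), a pigmentation gene, to Cyp4g1, a cytochrome P450 gene, holds 11 genes. Their order is y, lncRNA:yar, ac, then 3 further long non-coding RNA genes, sc, l(1)sc, Pgcl, ase and Cyp4g1. The table gives the order of neighbours only. Its coordinates belong to another build and were not carried over, so none of the 5 positions was assigned to ac, sc, l(1)sc or ase, to a promoter or to an enhancer, and the limits of the interval were not checked against a dm3 annotation. No sequence is shown, because no dm3 sequence was used here.

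The 4 early positions lay at X 301271, 301710, 318766 and 345862 (first base of a called position that is 2 bp wide). Each position carries a score that the authors deposited without naming its scale, and the early scores of these positions were 8.51, 111.8, 11.6 and 12.4 in that order. The early list's median was 11.3, with the positions at 318766 and 345862 just above it and that at 301271 below it. The position at 301710 stood far above the other early ones. Its score was number 95 of 5364 in the early list, at the 98.2nd percentile. The weak position 439 bp before it was at the 32.2nd percentile, and those at 318766 and 345862 were at the 51.7th and 55.1st percentile. Scores on X ran higher than in the whole early list, with a median of 13.2. Among X positions alone the 4 stood at the 20.5th, 96.8th, 41.0th and 45.7th percentile.

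The late list had a single position in the complex, at X 301698, with a score of 175. It was number 7 of 2390 late positions genome-wide and the highest-scoring of the 527 on X. The late median was 13.6 in the whole list and 16.4 on X. Each list was divided by its own scores into 10 classes of equal size (deciles), with decile 10 the highest. The complex had 1 position of decile 10 in each list, and this class held 13.3% of early and 12.9% of late X positions.

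**Figure D1:**
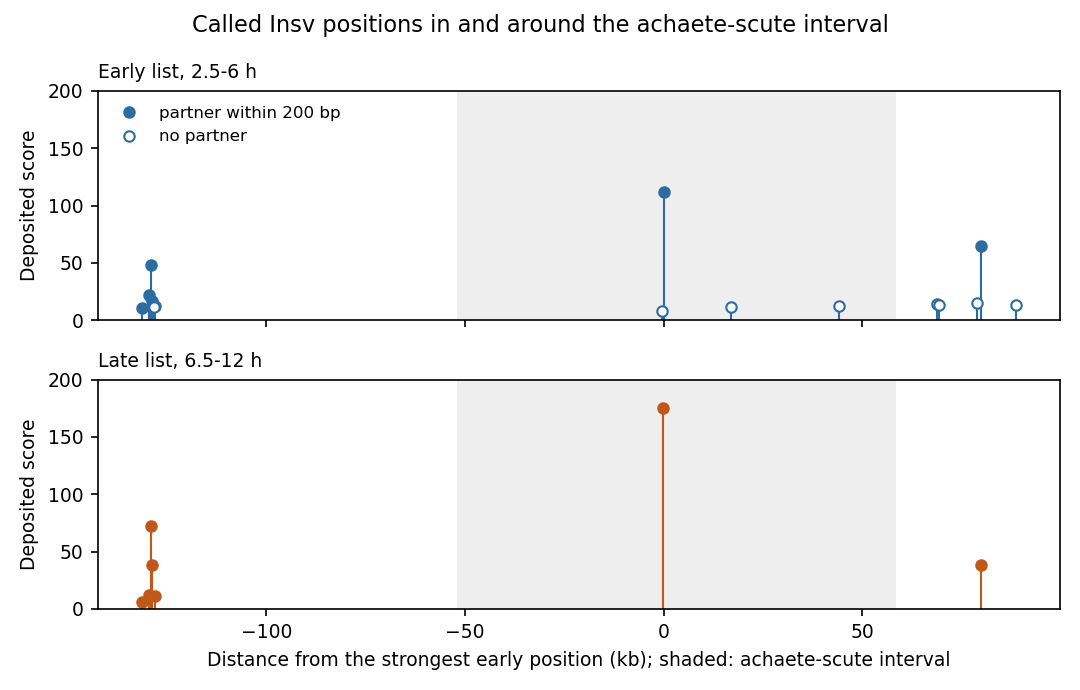
Deposited score of each called Insv position (vertical axis) against its distance in kb from the strongest early position of the achaete-scute interval, which is shaded; the upper panel shows the early list, the lower panel the late list, and filled points have a partner in the other list within 200 bp. The interval holds 1 tall position at both ages (111.8 early, 175 late) and 3 early positions of far lower score that have no late partner.

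The strong early and late positions lay 12 bp apart, with the late one on the lower coordinate, and were each other's nearest. Positions of different lists were counted as partners at a distance of up to 200 bp. By that criterion 1 of the 4 early positions had a late partner (25%, 95% exact binomial interval 0.631 to 80.6, which covers counting error only), against 43.3% of the whole early list and 48.1% of early X positions. The 1 late position had an early partner, as did 94.6% of the late list and 96.4% of late X positions. With 4 and 1 positions, these shares cannot be told from those of the lists.

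The 3 early positions without a partner differed in how far they were from late binding. The position at 301271 was 427 bp from the late position, while that at 318766 lay 17068 bp beyond it. The position at 345862 was 35820 bp before the next late position, which was outside the interval. Among all 3039 early positions without a partner the median distance to a late position was 9732 bp. The distance at 345862 was longer than for 75.7% of these. Their scores placed them where a missing partner was common in the early list. Positions in decile 4, which held 301271, had a late partner in 24.6% of cases (95% interval 21.0 to 28.5). For decile 6, which held 318766 and 345862, it was 34.0% (29.95 to 38.1). These intervals also cover counting error only, and they take positions of 1 library as independent although many lie close together. Of the 271 early positions of decile 6 that stood alone, with no early neighbour within 1000 bp, 84 (31.0%) had a late partner. In decile 10, which held 301710, 536 of 537 positions had one.

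The weak position at 301271 flanked the strong one. Such a flanking position, with a higher-scoring early position within 1000 bp, was common in the early list (1861 of 5364, 34.7%), and 454 of the 537 early positions of decile 10 had at least 1 early neighbour at that distance. The spacing of 439 bp in the complex was longer than the median spacing of 337 bp. The flanking score was 7.62% of that of the strong position, against a median of 50.3% over all flanking positions, and 55 of the 1861 (2.96%) had a lower percentage. Flanking positions with under 10% of their neighbour's score numbered 94, and 33 of them (35.1%) had a late partner. No late position was called beside 301698 that could match the weak early one. Whether a close pair of called positions reflects separate binding sites was not tested.

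Early and late scores are not known to share a scale, so the strong pair was placed among the 2233 mutual pairs of the genome, which give orders of equal length at both ages. It was number 94 of the 2233 by early score (95.8th percentile) and number 7 by late score (99.7th percentile). On X, 35 of the other pairs had a higher early score and 0 of the 502 pairs had a higher late score. Ordered by the ratio of late to early score, the pair was number 210 of 2233, at the 90.6th percentile, and at the 92.6th percentile among X pairs. A multiplicative difference in scale between the lists would shift every ratio alike and leave this order as it is. The size of a ratio, and whether it is above or below 1, depends on that unknown scale and is not read here. Because the late score is part of the ratio, the order by ratio is not independent of the high order by late score.

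The pair was also set beside pairs of like strength. A total of 58 other pairs had an early score within 10% of 111.8. The late scores of these pairs had a median of 65.9 (quartiles 48.1 and 86.7, range 14.9 to 198), and 1 of the 58 exceeded the 175 of the complex. Seen from the late side, 8 other pairs had a late score within 10% of 175. Early scores among those had a median of 119 (range 88.5 to 197), and 5 of them were above 111.8. The pair of the complex stood at the upper end of late scores for its early score, and in the middle of early scores for its late score. The first of these follows largely from its late order. As number 7 of 2233 by late score, it could be exceeded by few pairs of any early score. The 12 bp between its positions compare with a median of 8 bp over all pairs, and 31.8% of pairs were farther apart.

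**Figure D2:**
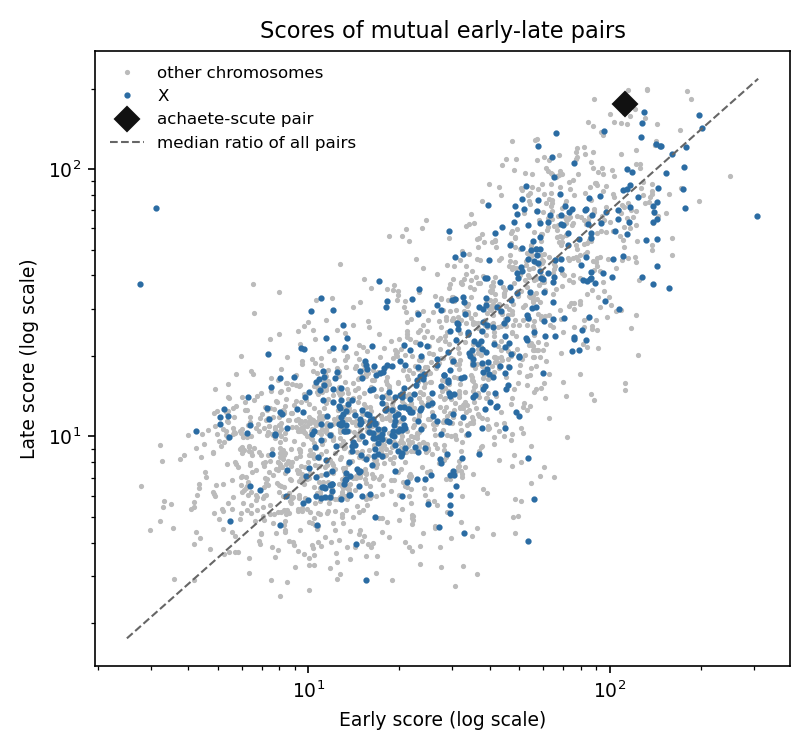
Late score against early score, both on log scales, for the 2233 mutual early-late pairs; blue points are X pairs, grey points other chromosomes, the diamond is the pair in the achaete-scute complex and the dashed line marks the median ratio of all pairs. The diamond (111.8 early, 175 late) lies above the line, at the 90.6th percentile of the ratio. The ratio contains the late score, so this place is not independent of its high late order.

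In number of positions the complex was an ordinary stretch of X. The chromosome was divided into intervals of the same 110001 bp on a grid that contains the complex, which gave 200 others. These held a median of 4 early positions (quartiles 1 and 8, range 0 to 30), and 95 of the 200 had fewer than the 4 of the complex while 92 had more. They held a median of 2 late positions (quartiles 0 and 4, range 0 to 15), and 106 of the 200 had more than 1. Of the 200, 28 had no early and 59 no late position. In the 40 other intervals with 3 to 5 early positions, late positions numbered 0 to 5 with a median of 2. Chaining positions up to 1000 bp apart gave the complex 3 early regions, equal to the median of the other intervals, and 1 late region, also the median.

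The interval combined an ordinary number of positions with a high top score. Since it holds the highest-scoring late position on X, its top late score is above that of every other interval by construction; the 141 others with a late position had a median top score of 37.1 (range 4.05 to 164). The top early score of the 172 other intervals with an early position had a median of 41.1 (range 4.59 to 307), and 29 of them (16.9%) exceeded 111.8. The median early score of the complex, 12.0, was below that of 106 of these 172 intervals. Among the 35 other intervals that also had exactly 1 late position, the late score had a median of 11.1 and a maximum of 58.7. Among the 80 other intervals with 1 to 4 early positions, 48 had a late position, and their top late score had a median of 14.6 and a maximum of 93.2. That both maxima lie under the top late score of the complex also follows by construction. These intervals share a chromosome and a library, and their order is a description.

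**Figure D3:**
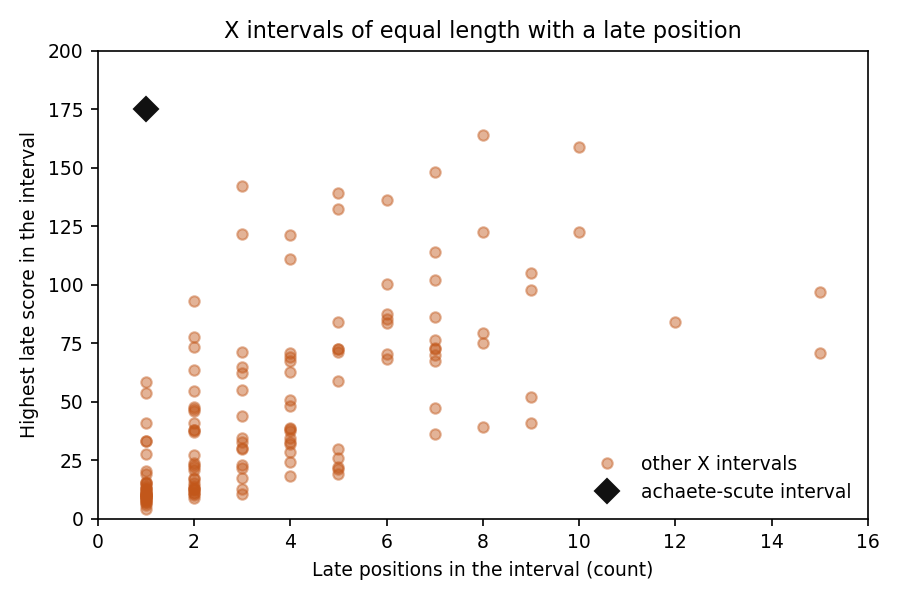
Highest late score against the number of late positions in each X interval of 110001 bp that holds a late position; orange points are the 141 other intervals and the diamond is the achaete-scute interval. The diamond has 1 late position and a score of 175, and the other intervals with 1 late position reach at most 58.7. Its place at the top follows from its being the highest late score on X.

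The positions of the complex were flanked by gaps longer than the X median. The gaps inside it were also longer, except that between 301271 and 301710. The nearest early position before 301271 was at X 173647, 127624 bp away, a gap that 42 of the 1088 early gaps on X exceeded, where the median gap was 2909 bp. The first 51.3 kb of the interval had no position in either list. Inside it, the early gaps of 17056 bp and 27096 bp were longer than 74.2% and 80.1% of X gaps. The remaining early gap, of 439 bp between 301271 and 301710, was exceeded by 797 of the 1088. After 345862 the next early position lay 24746 bp on, at X 370608, outside the interval, with a score of 13.8. The late position had an empty stretch of 128057 bp before it and 79984 bp after it. These compare with a median late gap of 5608 bp on X, and 58 and 97 of the 526 late gaps were longer. Its next late neighbour, at X 381682, scored 37.8. In both lists the X gaps include those of up to 1000 bp inside regions, which lower the medians. Gaps between regions were not ordered on their own. The percentages and counts above therefore do not show whether the complex was sparser than the usual spacing between regions.

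Strong late positions elsewhere mostly had a close late neighbour, and the one in the complex had none. Of the 239 late positions of decile 10, 175 (73.2%) had another late position within 1000 bp, and the median distance to the nearest was 359 bp. At 79984 bp, the late position of the complex was exceeded by 5 of the 239, of which 1 was on X. That one, at X 7416172, scored 136 and was 82456 bp from its neighbour. The farthest, at 2L 13445717, scored 167 and was 225779 bp away, and the others, on 3L and 3R, scored between 80.8 and 89.7. On X, 11 of the 68 late positions of decile 10 were alone in their region. The other 10 had a median score of 72.7 and a maximum of 136, below 175 by construction because the complex holds the highest late score on X. Of the 10 highest-scoring late positions genome-wide, 3 were alone in their region, and the complex held 1 of these 3. The X positions next in late score after 175 were at 6737988 with 164, at 8801075 with 159 and at 15356759 with 148, each with a late neighbour at 520 bp or less.

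**Figure D4:**
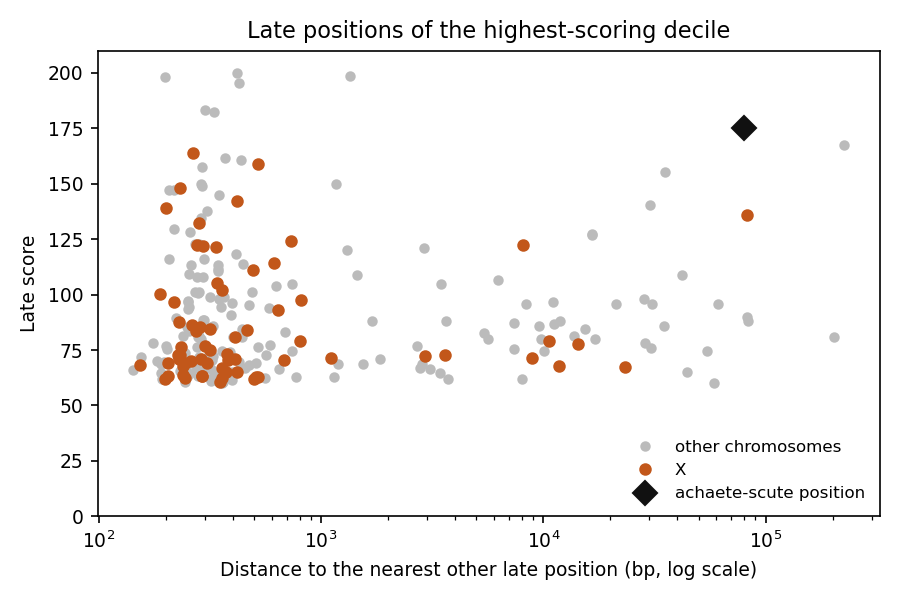
Late score against the distance in bp (log scale) to the nearest other late position for the 239 late positions of decile 10; orange points are on X, grey points on other chromosomes, and the diamond is the position in the achaete-scute complex. Most points lie under 1000 bp, while the diamond lies at 79984 bp with a score of 175.

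Most strong X positions elsewhere had more positions around them, in a count that does not use the limits of the interval and was chosen after the values were seen. Within 50 kb of the strong early position there were 3 other early positions and 1 late one. Around the 145 early X positions of decile 10, the median was 11 other early positions (quartiles 6 and 14) and 6 late ones (4 and 9), and 132 of the 145 had more early company. Around the strong late position no other late position lay within 50 kb. The 68 late X positions of decile 10 had a median of 5 others (quartiles 4 and 8), and 66 of the 68 had more than 0. These counts are of positions, not regions, so clustered positions add to them. A neighbour of the same list lay within 1000 bp of 122 of the 145 early and 57 of the 68 late positions. Regions within 50 kb were not counted.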

How the data were processed

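ChIP-seq was carried out on sonicated nuclei, and libraries were PCR-amplified, per the labels' protocols. The submitters' processing notes name the read aligner Bowtie and build dm3. How peaks were called, and whether against IgG, is not given in the sources at hand. Each deposited list holds positions 2 bp wide and a score whose scale the authors did not name. Scores were ordered within a list or within mutual pairs. Read depth is unknown. Coordinates are 1-based.

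Percentiles are the percentage of the list at or below a score. Mutual pairs are each other's nearest within 200 bp. Deciles, gaps, regions chained at 1000 bp and the X grid were computed with pandas 2.3.3, numpy 2.4.6 and scipy 1.17.1 under Python 3.11.15, figures were drawn with matplotlib 3.10.9, and the matching code was checked on simulated lists. No test was made, as each group has 1 sample. Positions named were all members, with neighbours and like positions chosen after their values were seen. Members and comparisons were chosen with earlier results of these data known, including the late order of X 301698. The planned motif searches and protein comparison were not run, because no sequence was used here.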

Additional observations from a re-analysis of the deposited data

How the results depend on the processing

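Of 52 values recomputed under an alternative, 37 kept within the counting interval of the original value or within 1.5 times the original count, and 15 moved outside it. This split depends on the width of the intervals and does not measure stability. For partner shares they rested on 4 early and 1 late positions and ran from 0.631 to 80.6 and from 2.5 to 100. For median percentiles they rested on the whole list, so that small shifts counted as moved. With the early list as long as the late list, 1 early position was left in the complex, the strong one, and 100% of it had a partner. Requiring an overlap of at least 1 bp left 0% of early and 0% of late positions with a partner, since the strong pair is 12 bp apart. Within 500 or 1000 bp, 50% of early positions had a partner. Shares of the whole list and of X were not recomputed under the changed list or distances. These recomputed shares therefore have no background beside them and are not read as a trait of the complex. The median early percentile of 53.4 became 43.4 among X positions, 55.7 for the highest score of each region and 26.6 among positions with a partner, and the late percentile of 99.7 became 100 on X. The percentage of X intervals with more early positions, 46%, became 53.2% without empty intervals and 37.5% for regions. For more late positions, 53% became 61.3% without empty intervals and 36% with the top 50% of each list. Among X pairs alone the strong pair stood at the 93.0th percentile by early score, the 100th by late score and the 92.6th by ratio. Counting within 50 kb, the added setting, gave 4 early and 1 late positions. No paired analysis was possible because there was 1 library per age, and no replicate could be left out. Unknown depth and caller settings limit any reading of positions absent from the late list.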
